A study of Mus musculus with 27 samples.

Results

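The transcription factors examined here were Cdx1, Cdx2, Hnf4a, Hnf4g, Gata4, Gata6, Klf5, Elf3 and Klf4, 9 of the 22524 genes in the count tables. They were chosen by name, as factors known to set or maintain the identity of the intestinal epithelium. No measured value was used to select them, but earlier results of these data were known when the choice was made. CDX1 and CDX2 are caudal-type homeodomain proteins, and CDX2 specifies intestinal as opposed to gastric endoderm. HNF4A and HNF4G are nuclear receptors that share binding sites and activate enterocyte genes for lipid handling and the brush border, while the zinc finger factors GATA4 and GATA6 set regional identity along the small intestine, where GATA4 marks the proximal part. KLF5 is a zinc finger factor of proliferating crypt cells, KLF4 a related factor of differentiated and goblet cells, and ELF3 an ETS family factor of epithelia.

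The study profiled poly(A) RNA of murine small intestinal organoids, of m-ICc12 cells and of mouse embryonic fibroblasts (MEFs), to ask how reproducible organoid cultures are and how near to them a cell line comes. Organoids were grown from jejunal crypts of 9 wild-type C57BL/6J males, 8 to 12 weeks old, 3 cohoused littermates each from a pair of specific pathogen-free facilities (SR and SE) and from a germ-free facility (GF). Each animal gave 1 culture, sampled at passage 5 to 8, and each culture gave a library labelled untreated and a library labelled as given TNF (5 ng/ml, for a duration of 8 h). m-ICc12 is an immortalised line derived from mouse small intestine, represented by 3 cultures with the same pair of labels, and the 3 MEF libraries (C57BL/6, mesodermal origin) were labelled untreated. No source used here says whether the 3 cultures of the line or of the MEFs were separate isolates, so their spread may be technical.

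The sources of these libraries disagree on treatment. In all 12 treated and untreated pairs, the table deposited for the library labelled untreated carried a name code ending in T, the mark that the sample titles give to TNF. Nfkbia, Tnfaip3, Nfkb2, Relb and C3, known targets of TNF signalling, were higher in the library labelled untreated in 9 of 9 organoid pairs and in 3 of 3 m-ICc12 pairs, with Nfkbia at 149 to 227 CPM (read counts scaled to the library total) against 23.7 to 36.6 CPM in organoids. Libraries are therefore named by their label throughout, and no direction below is credited to TNF. The libraries held 6071103 to 43843615 counts, so that 3 counts, the limit that a count of 0 allows, came to 0.0684 to 0.494 CPM, and values that rest on fewer counts are not resolved from 0. The shallowest library, of m-ICc12 culture 1 labelled TNF-treated, had 13.5% of its counts on 1 gene, Lars2, and m-ICc12 culture 3 labelled TNF-treated had 4.44%, against at most 0.688% in the others. These libraries enter the comparisons of treatment labels, the scaling factors, the likeness of patterns over all libraries and the alternatives that use the libraries labelled TNF-treated, but not the main comparisons of culture types.

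Upstream sequence is shown for the members on which the comparison of organoids and cell line turns and for which RefSeq gives a promoter window (GRCm38.p6): Cdx2, which was near 0 in the line, and Hnf4a and Elf3, which were not. RefSeq's table held windows for 4 of the 9 members, 2 of them for Hnf4a. Each run below is written 5′ to 3′ in the direction of the gene, begins 250 bases before the RefSeq start site, and ends at that site or before the first exon of an annotated protein-coding transcript. Capitals mark matches on either strand to 5 motifs. For the GATA factors the letters searched were AGATAA. For the caudal factors they were TTTATG, for HNF4 CAAAGTCCA, for the Krüppel-like factors CCACCC and for ETS factors AGGAAG.
Cdx2, chr5:147307271-147307499, minus strand: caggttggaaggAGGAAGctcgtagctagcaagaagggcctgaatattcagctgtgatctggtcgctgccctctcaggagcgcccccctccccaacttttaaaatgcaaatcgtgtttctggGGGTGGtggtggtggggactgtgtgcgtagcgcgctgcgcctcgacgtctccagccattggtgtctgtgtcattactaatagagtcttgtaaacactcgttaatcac
Hnf4a upstream start, chr2:163506607-163506807, plus strand: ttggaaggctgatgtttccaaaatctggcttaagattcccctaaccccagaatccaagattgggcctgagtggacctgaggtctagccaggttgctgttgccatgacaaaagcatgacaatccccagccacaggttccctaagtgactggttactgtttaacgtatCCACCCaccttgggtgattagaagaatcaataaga
Hnf4a downstream start, chr2:163546905-163547154, plus strand: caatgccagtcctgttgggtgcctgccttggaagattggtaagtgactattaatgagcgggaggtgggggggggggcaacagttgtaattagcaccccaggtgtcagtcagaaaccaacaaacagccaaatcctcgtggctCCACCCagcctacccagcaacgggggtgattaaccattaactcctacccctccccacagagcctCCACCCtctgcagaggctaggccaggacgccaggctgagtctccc
Elf3, chr1:135258569-135258722, minus strand: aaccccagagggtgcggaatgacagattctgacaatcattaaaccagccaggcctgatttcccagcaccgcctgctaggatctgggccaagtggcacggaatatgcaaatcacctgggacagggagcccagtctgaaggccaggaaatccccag
The window of the downstream Hnf4a start held 2 matches to CCACCC, which was found in 28.1% of all 32851 promoter windows cut to the same 250 bases. The Cdx2 window held 1 match each to CCACCC (25.9% of windows cut to 229 bases) and to AGGAAG (27.1%). The upstream Hnf4a window held 1 match, to CCACCC (22.5% of windows of 201 bases), and the 154 bases of Elf3 held none of the 5 motifs. No match to one motif overlapped a match to another. The matches describe these letters only, and the count tables do not tell apart transcripts from the separate Hnf4a starts.

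All members were expressed in every organoid library. On a scale of CPM per kilobase of annotated exon, over the 9 organoid libraries labelled untreated, Cdx1 had the highest median level (248, range 226 to 332), followed by Hnf4a (222, range 204 to 244) and Elf3 (163, range 152 to 183). Cdx2 stood at 78.6 (range 70.1 to 105). The other members lay lower, Hnf4g at 25.2, Gata4 at 20.7, Klf5 at 18.9, Gata6 at 12.6 and Klf4 at 9.39. The ranges of Cdx1 and Hnf4a overlapped, whereas Hnf4a, Elf3, Cdx2 and the group below were each separated by a gap. Within each library labelled untreated Cdx1 exceeded Hnf4a, but not in every library labelled TNF-treated (211 against 236 in culture Z918). Each of the 5 lower members overlapped its neighbours in this order, and each neighbouring pair was reversed within some library. The order of neighbours is therefore not resolved. Klf4 and Klf5 did not overlap, and Hnf4g exceeded Klf4 within each library labelled untreated.

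Of the 9 members, 8 were higher in organoids than in m-ICc12 cells and 1, Klf4, did not pass the test (edgeR's quasi-likelihood test, Benjamini-Hochberg adjusted p under 0.05 over 12962 genes, 9 organoid and 3 m-ICc12 libraries labelled untreated). In that comparison 60.9% of all genes tested were called, 31.6% as higher and 29.3% as lower in organoids. Against MEFs, with the same organoid libraries, all 9 were higher, where 67.2% of 13144 genes were called, 34.6% as higher and 32.6% as lower in organoids. The median member differed by 7.89 (log2) from m-ICc12 and by 9.08 from MEFs, against 0.03 for the median gene in both. Between m-ICc12 and MEFs, 8 members were tested: Hnf4a, Elf3 and Klf4 were higher in m-ICc12, Gata4 and Gata6 were lower, and Cdx1, Cdx2 and Klf5 were not called, beside 59.3% of 12830 genes called, 28.1% higher and 31.2% lower in m-ICc12. In the comparisons with MEFs the organoid and m-ICc12 tables carried the T code and the MEF tables did not, so that culture type and a treatment given by the code cannot be told apart there. With the libraries labelled TNF-treated, whose tables lack the code, 9 and 5 members were called against MEFs as well. In such bulk libraries, fewer cells expressing a gene and less RNA per cell cannot be told apart.

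**Figure D1:**
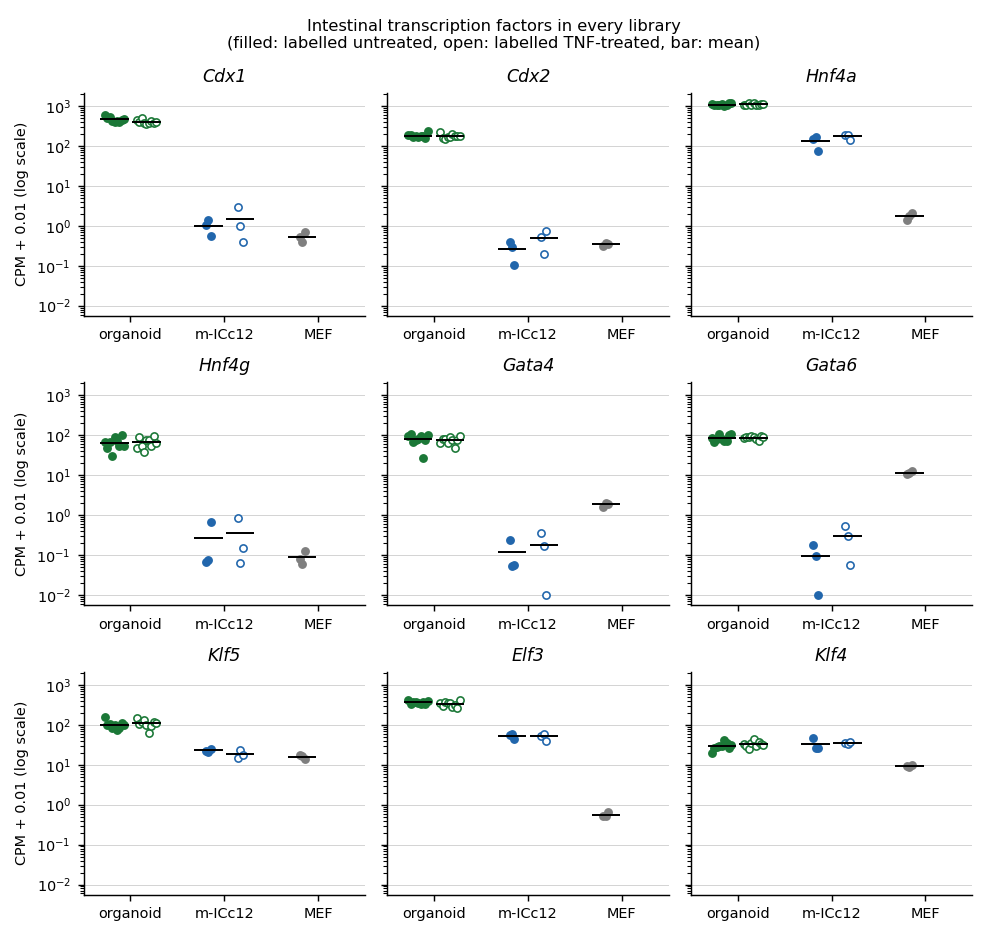
Level of each factor in every library, as CPM + 0.01 on a log axis, for organoids (green), m-ICc12 (blue) and MEFs (grey). Filled points are libraries labelled untreated, open points libraries labelled TNF-treated, and bars are means. Klf4 lies between 8.67 and 46.2 CPM in all libraries labelled untreated, whereas Cdx1 does not exceed 2.94 CPM and Cdx2 0.715 CPM in any library other than those of organoids.

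The caudal factors separated organoids from both other cultures. Cdx1 (ENSMUSG00000024619) lies at chr18:61018862-61036199 and Cdx2 (ENSMUSG00000029646) at chr5:147300805-147307270, both on the minus strand of GRCm38. Cdx1 ranged from 395 to 582 CPM (median 434) in the organoid libraries labelled untreated, against 1.01, 1.37 and 0.548 CPM in the 3 m-ICc12 cultures and 0.520, 0.375 and 0.686 CPM in the MEFs. Cdx2 ranged from 158 to 238 CPM (median 178), against 0.376, 0.282 and 0.0953 CPM in m-ICc12 and 0.308, 0.350 and 0.343 CPM in MEFs. The levels in the line and in fibroblasts overlapped for both genes, and rested on 23 to 63 counts of Cdx1 and 4 to 13 counts of Cdx2 in m-ICc12. Organoids exceeded m-ICc12 by a log2 fold change of 8.87 ± 0.28 (SE) for Cdx1 (adjusted p = 2.5e-13) and 9.50 ± 0.29 for Cdx2 (adjusted p = 1.52e-13), which was 8.73 in the libraries labelled TNF-treated. The line and the MEFs differed by 0.84 ± 0.93 for Cdx1 (adjusted p = 0.456) and by -0.46 ± 1.13 for Cdx2 (adjusted p = 0.75), intervals that reach from -0.97 to 2.66 and from -2.67 to 1.76.

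The nuclear receptors differed from each other in the line. Hnf4a (ENSMUSG00000017950) lies at chr2:163506808-163572910 and Hnf4g (ENSMUSG00000017688) at chr3:3508030-3658052, both on the plus strand. Hnf4a, the most evenly expressed member among organoid cultures, ranged from 983 to 1176 CPM (median 1071) in organoids labelled untreated, and stood at 150, 167 and 75.5 CPM in m-ICc12 and at 1.42, 1.73 and 2.10 CPM in MEFs. The groups did not overlap, and the m-ICc12 mean was 12.1% of the organoid mean while the MEF mean was 0.162%. The log2 fold change was 3.04 ± 0.20 between organoids and m-ICc12 (adjusted p = 1.11e-09) and 6.20 ± 0.32 between m-ICc12 and MEFs (adjusted p = 3.3e-09). Hnf4g, its paralogue, was a minor species by comparison, at 31.1 to 99.6 CPM (median 66.2) in organoids. In m-ICc12 it was at 0.0579, 0.0651 and 0.667 CPM, from 2, 3 and 28 counts, so that culture 3 stood apart from the other two, and in MEFs it did not exceed 0.114 CPM. Organoids exceeded m-ICc12 by 7.89 ± 0.63 (log2, adjusted p = 1.42e-08), a difference of 9.94 without culture 3 and 8.58 in the libraries labelled TNF-treated, and too few counts were present to test the line against MEFs.

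Both GATA factors were lower in m-ICc12 than in fibroblasts. Gata4 (ENSMUSG00000021944) lies at chr14:63198922-63271692 on the minus strand and Gata6 (ENSMUSG00000005836) at chr18:11052064-11085635 on the plus strand. Gata4 ranged from 26.3 to 106 CPM (median 80.8) in organoids labelled untreated, against 0.231, 0.0434 and 0.0477 CPM in m-ICc12, from 8, 2 and 2 counts, and 1.56, 2.05 and 1.94 CPM in MEFs. Gata6 ranged from 69.6 to 109 CPM (median 81.7) in organoids, against 0.174, 0.0869 and 0 CPM in m-ICc12, where a count of 0 allows up to 0.0765 CPM, and 10.95, 11.2 and 12.4 CPM in MEFs. The 3 culture types did not overlap for either gene. The m-ICc12 levels lay below those of MEFs by a log2 fold change of -4.15 ± 1.05 for Gata4 (adjusted p = 0.00429) and -7.10 ± 0.73 for Gata6 (adjusted p = 2.78e-06), and they rested on 2 to 8 counts of Gata4 and 0 to 6 counts of Gata6 per library. Without m-ICc12 culture 1 the differences were -5.29 and -7.94, and in the libraries labelled TNF-treated that of Gata6 was -5.57 (-6.38 in summed libraries), with every call kept in the alternatives tried. The MEF mean of Gata6 was 13.3% of the organoid mean, the m-ICc12 mean 0.101%. Exons of Gata6 and of Elf3 overlap, on the other strand, exons of the annotated genes 1010001N08Rik and Gm26642, and whether counting used the strand was not stated.

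The Krüppel-like and ETS factors were present in the line. Elf3 (ENSMUSG00000003051) lies at chr1:135253575-135258568 and Klf4 (ENSMUSG00000003032) at chr4:55527143-55532466, both on the minus strand, and Klf5 (ENSMUSG00000005148) at chr14:99298691-99315036 on the plus strand. Elf3 ranged from 338 to 406 CPM (median 361) in organoids labelled untreated and was at 57.0, 59.1 and 44.1 CPM in m-ICc12 and at 0.497, 0.525 and 0.648 CPM in MEFs, with no overlap. The m-ICc12 mean was 14.7% of the organoid mean, close to the share for Hnf4a, and the difference from organoids was 2.77 ± 0.13 (log2, adjusted p = 1.24e-11). Klf5 ranged from 75.3 to 157 CPM (median 98.5) in organoids, against 21.8, 21.3 and 25.0 CPM in m-ICc12 and 17.5, 16.4 and 13.7 CPM in MEFs. It was higher in organoids than in m-ICc12 by 2.15 ± 0.20 (adjusted p = 1.16e-07), while the line and the MEFs differed by 0.48 ± 0.22 (adjusted p = 0.0747). Klf4 was the member whose level did not separate organoids from the line: 20.1 to 41.4 CPM (median 28.6) in organoids and 46.2, 26.4 and 25.6 CPM in m-ICc12. The log2 difference of Klf4 was -0.13 (95% interval -0.57 to 0.31, adjusted p = 0.638), and MEFs were lower than the line, at 9.37, 8.67 and 9.76 CPM (1.77 ± 0.26, adjusted p = 7.63e-05).

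**Figure D2:**
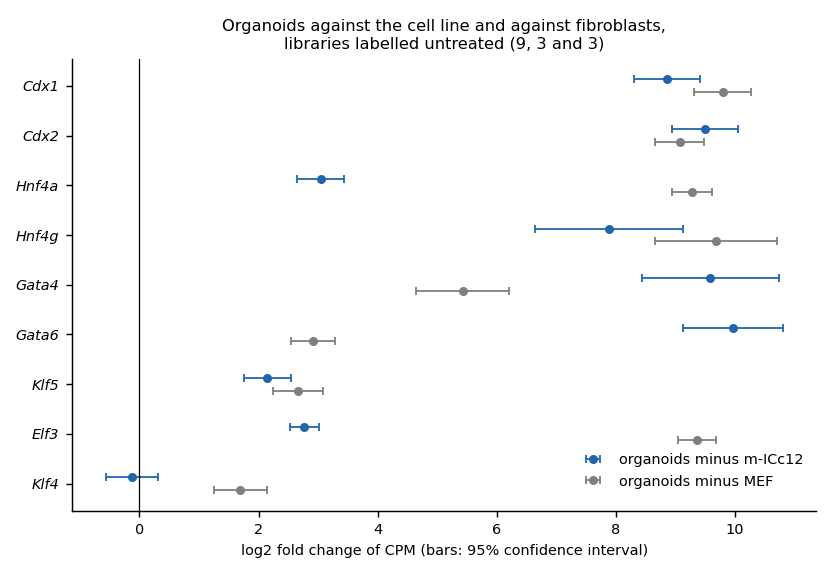
Log2 fold change of each factor between organoids and m-ICc12 (blue) and between organoids and MEFs (grey), libraries labelled untreated, with 95% confidence intervals. Hnf4a and Elf3 sit near 3 against m-ICc12 and near 9 against MEFs, Gata4 and Gata6 show the reverse order, and the interval of Klf4 against m-ICc12 includes 0.

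Other transcription factors of gut endoderm were also compared. Of 34 such network partners, 33 were tested between organoids and m-ICc12: 22 were higher in organoids, 5 lower and 6 not called, with a median log2 difference of 4.44. The largest differences were of Neurog3, Atoh1 and Ascl2, factors of enteroendocrine, secretory and stem cells, at medians of 17.03, 6.25 and 29.9 CPM in organoids and 0 CPM in m-ICc12. In the opposite direction stood Maf (104 CPM in m-ICc12 against 5.79), Tead1 (241 against 52.5) and the low-level Zfp750 (1.09 against 0), whose call was lost with DESeq2 (adjusted p = 0.118) and without m-ICc12 culture 2 or 3 (edgeR adjusted p = 0.0538 and 0.0927). Named after their values were seen, Foxa1 was at a median of 52.8 CPM in organoids, 0.116 in m-ICc12 and 0.118 in MEFs, and Foxa3 at 45.2, 0.890 and 0.125 CPM.

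Family paralogues fell on both sides, as did all genes tested between organoids and m-ICc12 (31.6% higher and 29.3% lower in organoids). Of 26, 18 were tested between organoids and m-ICc12, of which 6 were higher in organoids and 7 lower, with a median log2 difference of -0.23. Gata5 (46.8 CPM in organoids, 0.0477 in m-ICc12) was higher in organoids, as were the epithelial ETS factors Ehf (251 against 3.04 CPM) and Spdef (13.6 against 0 CPM), which stand in the list of network partners as well. Klf8, Klf2 and Klf15 were higher in m-ICc12, at medians of 0.524, 1.72 and 6.89 CPM against 0 in organoids, and the calls of Klf8 and Klf15 were lost with DESeq2 (adjusted p = 0.176 and 0.0685), those of Klf2 and Klf15 without m-ICc12 culture 1 (edgeR adjusted p = 0.0984 and 0.0643). In MEFs, Gata2 and Gata3 were at 20.9 and 11.1 CPM, and in organoids and the line their medians did not exceed 0.0715 CPM.

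The known targets of these factors in enterocytes were lower in the line almost throughout. Of 27 intestinal target genes tested between organoids and m-ICc12, 26 were higher in organoids and 1 was lower. The median target was at 0.229% of its organoid mean in m-ICc12 and at 0.184% in MEFs. Muc13, a membrane mucin, Fabp2, the intestinal fatty acid binding protein, and Alpi, intestinal alkaline phosphatase, had the largest differences, at medians of 670, 158 and 22.2 CPM in organoids against 0.413, 0.174 and 0 CPM in m-ICc12. Krt20, a keratin of mature enterocytes, was the exception, at 683 CPM in m-ICc12 against 169 CPM in organoids (log2 difference -1.91 ± 0.26) and 0.450 CPM in MEFs. Some further targets are named here after their values were seen. The brush border genes Vil1 and Cdhr5 stood at 4.34% and 4.90% of the organoid mean in m-ICc12, against 0.167% and 0.157% in MEFs. The cell adhesion gene Cdh17 stood at 2.31% against 0.367%, Anpep at 3.84% against 0.260%, and Mep1a, a brush border protease, at 44.0% against 0.112%. Mttp and Fabp1 lay above Cdh17 in m-ICc12 but less far above MEFs, at 2.43% against 0.989% and 2.53% against 2.502%. Of the 9 regional genes tested, 8 were higher in organoids and 1, the iron exporter Slc40a1, was lower, and of the 12 stem cell genes 9 were higher, among them Ascl2, Tnfrsf19 and Olfm4, and 3 were not called, Myc among them at -0.18 ± 0.20.

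Markers of epithelium and of other cell types were compared as a check of the labelled cultures. Of 11 epithelial markers, 8 were higher in organoids, 1 was lower and 2 were not called. Krt8 was at a median of 1417 CPM in m-ICc12 against 2108 in organoids and 4.87 in MEFs, and Krt18 at 530, 603 and 1.26 CPM. Cdh1 (E-cadherin), Krt19 and Cldn3, which had the largest differences, were at 1.74, 2.497 and 0.0869 CPM in m-ICc12, against 991, 1356 and 241 CPM in organoids and 1.51, 8.31 and 0.350 CPM in MEFs. Kidney tubule markers were compared because HNF4A also acts in renal tubules. Of 12 tested, 10 were higher in m-ICc12, led by Pax2 (59.1 against 0.0383 CPM), Cdh16 (689 against 0.518 CPM) and Lrp2 (166 against 0.115 CPM), and 2, Aqp1 and Cubn, were higher in organoids. Their summed level over 15 genes was 1282 to 1530 CPM in m-ICc12, 641 to 845 CPM in organoids and 291 to 376 CPM in MEFs, with Slc34a1 and Aqp2 at 0 as medians of every culture type. Their part in the levels of Hnf4a, Elf3 and the other members in m-ICc12 was not tested.

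Fibroblast, immune and other markers were also compared. Of 7 fibroblast markers tested between organoids and m-ICc12, 2 were higher in organoids (Prrx1 and Pdgfrb), 2 were lower (Vim, 8.65 against 2660 CPM, and Col6a1) and 3, among them Fbn1 and Col1a2, were not called. The summed level of 15 fibroblast markers was 17.3 to 34.6 CPM in organoids, 1856 to 3013 in m-ICc12, most of it Vim, and 6613 to 8027 in MEFs, where Thy1, Dcn and Lum, genes usual in fibroblasts, were at a median of 0 and Col1a2 at 1693 CPM. Of 4 immune markers tested, 3 were higher in m-ICc12 (Csf1r at 98.4 CPM, Cd68 and Ptprc) and Itgam was higher in organoids. Of 4 endothelial, smooth muscle and nerve markers tested, Tubb3 was higher in organoids, Kdr and Des were higher in m-ICc12 and Acta2 was not called, all at or below 5.04 CPM as medians in both. The calls of Cd68, Prrx1 and Tubb3 did not withstand leaving out 1 culture. Without m-ICc12 culture 1 their edgeR adjusted p were 0.129, 0.0628 and 0.114, and without culture 3 they were 0.0545, 0.104 and 0.115. Without culture 2 that of Prrx1 was 0.0899, and without organoid culture Z910 or Z919 that of Tubb3 was 0.06 and 0.0524. In the libraries labelled TNF-treated neither Tubb3 (0.57, edgeR adjusted p = 0.641) nor Des (adjusted p = 0.126) was called, and Des was not called with DESeq2 either (adjusted p = 0.149). Tubb3 without the filter on counts (edgeR adjusted p = 0.0533) and Prrx1 in summed libraries (adjusted p = 0.0525) lost their calls too. Fbn1 was called as higher in m-ICc12 without Z919 (edgeR adjusted p = 0.0112), with all 27 libraries in 1 fit (0.00242), in the libraries labelled TNF-treated (0.00375) and in summed libraries (0.0161).

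The same lists were counted against MEFs. Of all genes tested, 34.6% were higher and 32.6% lower in organoids than in MEFs. Between m-ICc12 and MEFs these shares were 28.1% higher and 31.2% lower in m-ICc12. Between organoids and MEFs, 26 of 33 network partners were higher in organoids and 3 lower, as were 7 and 8 of 21 paralogues, and all 27 intestinal targets tested were higher. Between m-ICc12 and MEFs, 14 of 19 network partners were higher in m-ICc12 and 2 lower, 9 and 6 of 19 paralogues, and 7 and 0 of 19 intestinal targets, where 12 targets were not called. Of 11 epithelial markers, 5 were higher in m-ICc12 than in MEFs and 1 was lower. Kidney tubule markers were higher in m-ICc12 for 10 of 12 and lower for 1, and fibroblast markers were lower for 11 of 12 and higher for 0.

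Likeness of pattern was measured as Pearson's r of log2 CPM over the 27 libraries among 13793 expressed genes, which describes mainly the contrasts between the 3 culture types. Hnf4a and Elf3 were each other's most alike gene (r = 0.997), followed by Prr15l for Hnf4a and Ocln for Elf3. The most alike genes were Pigr and Gpx2 for Cdx1, Ppp1r1b and Jakmip1 for Cdx2, Trim31 and Slc39a5 for Hnf4g, Ckb and Ociad2 for Gata4, and Pkp1 and Smoc2 for Gata6, with r from 0.991 for Slc39a5 to 0.9985 for Pigr and Gpx2. Klf5 (Plcb3 and Slc35c1, r of 0.976 and 0.9745) and Klf4 (Hunk and Myo5b, r of 0.926 and 0.917) had looser neighbours. The number of genes with r over 0.95 was 670 for Cdx1, 678 for Cdx2, 236 for Hnf4a, 165 for Gata6 and 0 for Klf4.

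Whether the members differed between the libraries of a culture was tested next, as the library labelled untreated minus the library labelled TNF-treated. None of the 9 members was called over the 18 organoid libraries without pairing (edgeR's quasi-likelihood test, 12104 genes). That test called 1.39% of genes, 1.26% as higher and 0.124% as lower in the libraries labelled untreated. In it 1 of the 9 members, Cdx1, had an unadjusted p under 0.05, as had 1072 of the 12104 genes. Cdx1 was at 395 to 582 CPM (median 434) in the libraries labelled untreated and at 361 to 487 CPM (median 393) in those labelled TNF-treated. The groups overlapped, but within cultures the library labelled untreated was higher in 8 of 9, with culture Z917 as the exception. The log2 difference was 0.20 ± 0.08 (edgeR unadjusted p = 0.0203, adjusted p = 0.409). Libraries of a culture came from the same animal, a pairing that this fit left out. When the fit held each culture as a block, Cdx1 differed by 0.19 ± 0.05 and passed the test (edgeR adjusted p = 0.0162). The fit with the block called 3.28% of genes, 2.15% as higher and 1.13% as lower. Within facilities the log2 differences of Cdx1 were 0.38, 0.34 and 0.07 in SR, 0.15, 0.13 and 0.20 in SE and -0.03, 0.24 and 0.24 in GF.

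None of the other members passed the test in either fit. Elf3 was higher in the library labelled untreated in 7 of 9 cultures, by 0.14 ± 0.08 (log2, adjusted p = 0.659), and with the culture as a block by 0.15 ± 0.05 (adjusted p = 0.127). Hnf4a, at 983 to 1176 CPM in one label and 1021 to 1187 CPM in the other, differed by -0.03 (95% interval -0.13 to 0.08). Cdx2, Hnf4g, Gata4, Gata6, Klf5 and Klf4 had estimates between -0.14 and 0.09, with adjusted p of 0.887 or above. The intervals of the label difference were wide for Hnf4g (-0.41 to 0.31) and Gata4 (-0.25 to 0.42). Beside the members, the stem cell genes Ascl2 (1.70 ± 0.23, adjusted p = 3.45e-05) and Olfm4 (1.82 ± 0.29, adjusted p = 0.000238) were called among 12 tested, and 1 of 27 intestinal targets, Guca2a, and the network partner Vdr were called, all higher in the libraries labelled untreated. No gene was called among 15 paralogues, 9 regional genes and 11 epithelial markers.

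**Figure D3:**
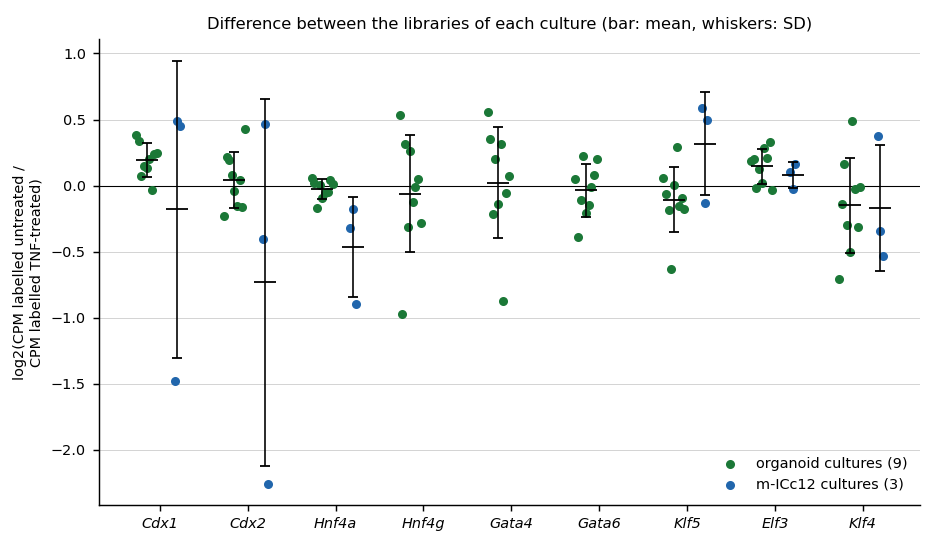
Log2 ratio of CPM in the library labelled untreated to that in the library labelled TNF-treated, for each organoid culture (green, 9) and each m-ICc12 culture (blue, 3, members tested there only), with the mean and SD. Cdx1 lies above 0 in 8 of 9 organoid cultures, and the SD of every other organoid member except Elf3 spans 0.

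In m-ICc12, 6 members had enough counts for this comparison and none was called, beside 0.11% of 11861 genes called, 0.0927% as higher and 0.0169% as lower. Hnf4a was lower in the library labelled untreated in 3 of 3 cultures, at 150, 167 and 75.5 CPM against 188, 189 and 140 CPM, with a log2 difference of -0.41 ± 0.24 (unadjusted p = 0.0989, adjusted p = 0.996). None of the 6 had an unadjusted p under 0.05, and none was called without culture 1, whose library labelled TNF-treated was the shallowest. Klf5 (0.27 ± 0.26), Elf3 (0.06 ± 0.20) and Klf4 (-0.13 ± 0.25) differed by less than their errors or close to them, and Cdx1 and Cdx2 rested on 3 to 63 counts a library. The difference between the organoid and the m-ICc12 response was itself tested for all 9 members, and none was called. Of 13183 genes 0.159% were called, 0.129% with a higher and 0.0303% with a lower response in organoids. Hnf4g, Gata4 and Gata6 entered this test only through their organoid counts. Their m-ICc12 libraries held 0 to 28 counts, too few to measure a response of the line, so the test decides nothing for them. The difference of Gata6, 1.43 ± 0.64 (edgeR unadjusted p = 0.034, adjusted p = 0.712), set organoid levels of 69.6 to 109 CPM against m-ICc12 libraries of 0 to 11 counts.

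The facility of the donor was compared last. The 3 mice of a facility were cohoused littermates, so that microbiota, facility, litter and cage cannot be told apart. The p-values measure the spread among cultures of littermates. Between the 3 GF and the 6 SR and SE organoid libraries labelled untreated, no member was called, beside 0.0325% of 12315 genes, 0.0244% as higher and 0.00812% as lower in GF, and no member had an unadjusted p under 0.05. The estimates of the members lay between -0.38 for Gata4 and 0.15 for Gata6. That of Gata4 was -5e-04 without GF culture Z917 and -0.78 without Z919. Between SR and SE, no member and 0% of 12219 genes were called by edgeR, against 486 genes with an unadjusted p under 0.05 and 8 called by DESeq2. Cdx1 was among the genes with an unadjusted p under 0.05, at 582, 497 and 512 CPM in SR and 409, 395 and 428 CPM in SE (log2 difference 0.37 ± 0.13, edgeR unadjusted p = 0.0131, adjusted p = 1). In the libraries labelled TNF-treated, which came from the same mice, Cdx1 was at 447, 393 and 487 CPM in SR and 369, 361 and 372 CPM in SE. Klf5 was the other member with an unadjusted p under 0.05, at 157, 98.9 and 102 CPM in SR and 98.5, 84.1 and 75.3 CPM in SE (0.47 ± 0.20, edgeR unadjusted p = 0.032, adjusted p = 1). The facilities overlapped for Klf5 in the libraries labelled TNF-treated, at 151, 103 and 116 CPM in SR and 130, 98.0 and 61.3 CPM in SE. Of the 32 network partners, 15 paralogues, 27 targets and 12 stem cell genes tested between facilities, edgeR called 0 in either comparison.

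Members differed in how far they varied among the 9 organoid cultures. The SD of the culture means, on the log2 scale, was 0.07 for Hnf4a, 0.13 for Cdx2, 0.14 for Elf3, 0.16 for Cdx1, 0.18 for Gata6 and for Klf4, 0.31 for Klf5, 0.42 for Hnf4g and 0.43 for Gata4. Gata4 was lowest in GF culture Z917, at 26.3 and 48.4 CPM in its libraries labelled untreated and TNF-treated, where the other cultures reached at least 67.7 and 64.2 CPM. Hnf4g was lowest in SE culture Z911, at 31.1 and 38.6 CPM, and highest in GF culture Z918, at 99.6 and 96.3 CPM. Klf5 was highest in SR culture Z908 (157 and 151 CPM) and lowest in SE culture Z913 (75.3 and 61.3 CPM). Each of these cultures, picked by the mean of its libraries, stood at the same end in both. Extremes of other members did not always do so. Cdx2 was highest by this mean in Z919, at 238 and 177 CPM, but Z908 reached 217 CPM among libraries labelled TNF-treated. Klf4 was lowest by this mean in Z908, at 20.1 and 33.0 CPM, but Z910 was at 24.9 CPM among libraries labelled TNF-treated.

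**Figure D4:**
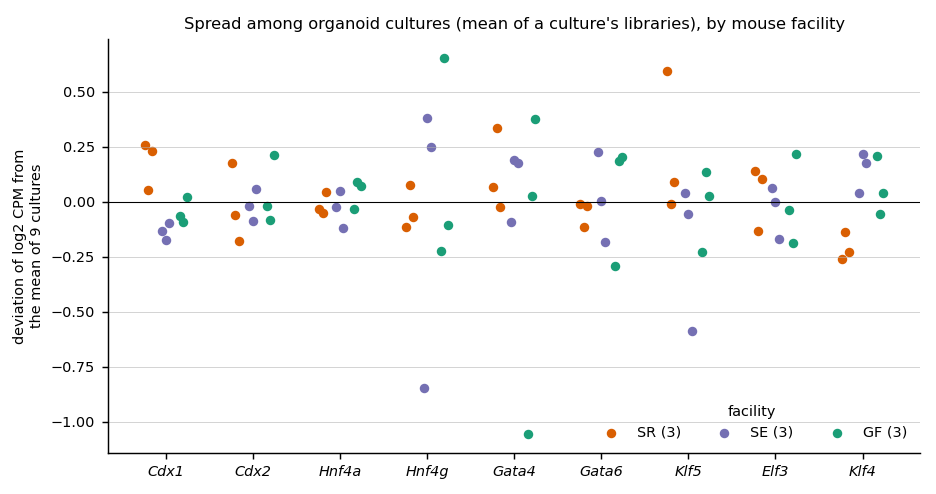
Deviation of each factor's log2 CPM from the mean of the 9 organoid cultures, averaged over the libraries of a culture and coloured by facility (3 cultures each). Hnf4a varies least, Gata4 in a GF culture lies 1.05 below the mean, and the SR cultures are the highest for Cdx1 and the lowest for Klf4.

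Covariation among the members was tested over the cultures. Of 36 pairs of members, 0 passed an exact permutation test over the 9 cultures after adjustment, and 2 had an unadjusted p under 0.05. Cdx1 and Klf4 had Pearson's r = -0.86 (exact p = 0.0028, adjusted p = 0.099) and Spearman's rho = -0.78 (exact p = 0.017, adjusted p = 0.31), and r = -0.62 without the 2 cultures farthest from the median of Cdx1. The 3 SR cultures were the highest for Cdx1 and the lowest for Klf4, and with facility means removed and cultures permuted within facilities, r was -0.34 (exact permutation p = 0.38, the smallest p that the 216 orders allow being 0.0046). Klf5 and Klf4 had r = -0.75 (exact p = 0.0092, adjusted p = 0.17) and rho = -0.80 (exact p = 0.014, adjusted p = 0.31), and r = -0.71 without the 2 farthest cultures. With facility means removed it had r = -0.62 (exact permutation p within facilities = 0.093).

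By the mean of the 27 intestinal targets, the organoid cultures fell into a lower and an upper set. This division was made after the values were seen and was not tested. In 4 cultures the target mean lay 0.31 to 0.69 (log2) above the mean of all, and in the other 5 it lay from -0.74 to -0.28. Over all 9 cultures, r with the target mean was -0.90 for Elf3, the 1 of 18 relations that passed adjustment (exact permutation test). For Hnf4g it was 0.73 and did not pass. With facility means removed and cultures permuted within facilities, r was -0.92 for Elf3 (exact permutation, adjusted p = 0.17). Such pooled values may rest on the difference between the sets. In order of rising target mean, Elf3 deviated from its own mean by 0.22, 0.06, -0.04, 0.10 and 0.14 in the lower set and by -0.0008, -0.13, -0.19 and -0.17 in the upper set. In the same order, Hnf4g deviated by -0.10, -0.85, -0.22, -0.07 and -0.11, and then by 0.38, 0.08, 0.65 and 0.25. Both sets held cultures of all 3 facilities. No correlation was computed within the sets, which held 4 and 5 cultures. With the mean of the 12 stem cell genes, none of the 9 members had an unadjusted exact permutation p under 0.05 over the 9 cultures. With facility means removed and cultures permuted within facilities, Hnf4g (r = -0.91, rho = -0.93) and Elf3 (r = 0.81, rho = 0.83) had an exact permutation p of 0.046 and 0.023 for r (0.042 and 0.019 for rho), and r was -0.78 and 0.76 without the 2 farthest cultures. Neither passed adjustment over the 18 relations (exact permutation, adjusted p = 0.21 for both by r, 0.25 and 0.17 by rho).

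**Figure D5:**
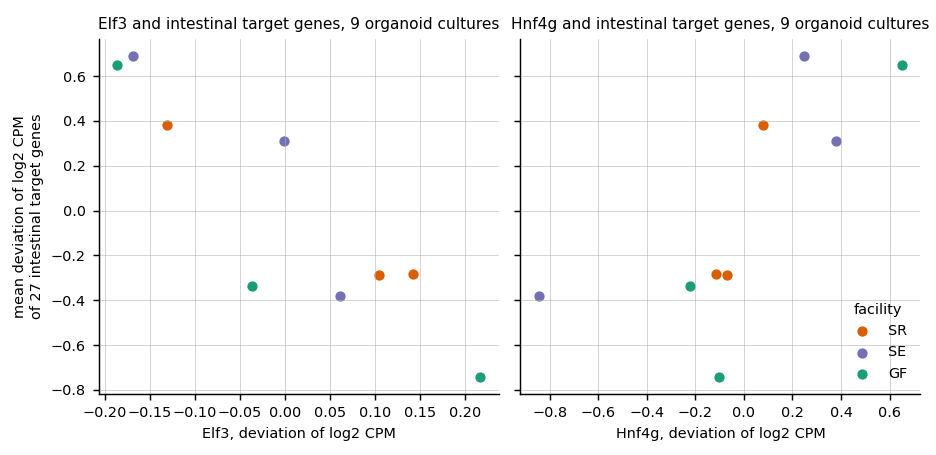
Mean deviation of log2 CPM of the 27 intestinal target genes against that of Elf3 (left) and Hnf4g (right) in the 9 organoid cultures, coloured by facility. The 4 cultures above 0.3 and the 5 below -0.2 on the vertical axis form the separate sets described in the text.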

How the data were processed

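RNA of 18 organoid, 6 m-ICc12 and 3 MEF libraries was sequenced after poly(A) library preparation, with a kit that the labels call stranded and the study's methods name without that word. The deposited values were raw read counts per Ensembl gene, 1 table a library, which the authors made from reads trimmed with Trimmomatic, aligned with STAR (2.5.4b in the submitters' processing notes, another version in the study's methods) to GRCm38 and counted with featureCounts (notes) or GenomicRanges (methods). The use of strand in counting is not given in the sources used here. Of 22524 identifiers, 22214 matched a symbol. Totals of 6071103 to 43843615 counts set the precision, and a count of 3 was taken as the floor.

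CPM used trimmed mean of M values (TMM) factors over all 27 libraries. Tests used edgeR 4.0.16 (R 4.3.3; quasi-likelihood F-test) on genes that reached 10 counts in 50% or more of 1 group's libraries, with Benjamini-Hochberg adjustment over all genes tested. Values after ± are SE unless another error is named, and intervals are 95%. Groups followed the labels. For m-ICc12 and MEF, p-values measure the spread between samples that may be technical. Libraries of an organoid culture came from 1 mouse, and their deviations from the label means correlated within cultures (mean r 0.171, range 0.082 to 0.31, against -0.02 between cultures, 9 of 9 highest with their own). Correlations over cultures used log2 CPM (prior count 2) and exact two-sided permutation tests, with facility means removed also within facilities.

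Named genes were all 9 members, the 2 genes most alike each, and up to 3 list genes with the largest differences between organoids and m-ICc12 in each direction, and others are said to be chosen after their values were seen. The members, lists and tests were chosen with earlier results of these data known. Alternatives were DESeq2 1.42.0, no filter on counts, all 27 libraries in 1 fit, leaving out each culture, the replicate block, facility as a covariate, the other label and summed libraries. Some list genes are counted but not reported by name here. RefSeq gave no promoter here for Cdx1, Hnf4g, Gata4, Gata6 and Klf5.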

Additional observations from a re-analysis of the deposited data

Results flagged for a closer look

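Within the 9 organoid libraries of a label, 3 of 18 sets of values held a library whose gap to its neighbour was large for the range of the set (Dixon's criterion on log2 CPM, critical value 0.493), and chance flags about 1 in 20 sets. Cdx2 was 238 CPM in the library labelled untreated of GF culture Z919, where the other 8 libraries lay between 158 and 185 CPM, and 177 CPM in the library of that culture labelled TNF-treated. Gata4 was 26.3 CPM in the library labelled untreated of GF culture Z917, against 67.7 CPM or more in the others. Klf5 was 157 CPM in the library labelled untreated of SR culture Z908, where the next was 108 CPM, and its library labelled TNF-treated was the highest of that label as well, at 151 CPM. None of the 9 sets of differences between labels was flagged.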

How the results depend on the processing

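Calls of members between culture types changed in 1 case under the alternatives tried. Of 394 recomputed values over 26 results, 391 kept direction and call, and the number of members called stayed at 8, 9 and 5 without any 1 culture. Cdx1 was called between m-ICc12 and MEFs with all 27 libraries in 1 fit (0.94, adjusted p = 0.0338), Cdx2 changed sign there in the libraries labelled TNF-treated (0.48), and Klf4 between organoids and m-ICc12 ranged from -0.27 to 0.21 when each culture was left out.

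With the replicate block over cultures, 397 genes in place of 168 and 1 member in place of 0, Cdx1, were called between organoid labels, and the block changed no other call of a member. Cdx1 was not called with DESeq2 (adjusted p = 0.319), facility as a covariate (0.199), no filter (0.241) or all 27 libraries (0.822). None of these fits paired the libraries of a culture, so they do not weigh against the fit with the block. In m-ICc12, libraries share only a culture number, their deviations correlated by 0.0311 on average (-0.00663 to 0.0926, 1 of 3 highest with its own), and the replicate block left 6 of 13 genes called. Counts over all genes moved most where few were called. In m-ICc12 labels the 13 became 46 with DESeq2 (25 against 11 higher), 30 without the filter, 29 with all 27 libraries and 15, 93 and 18 without culture 1, 2 or 3. For the difference between organoid and m-ICc12 labels, the 21 became 71 with DESeq2, 6 with all 27 libraries, 103 with the block, and 11 and 40 without m-ICc12 culture 2 or 3. For GF against SPF the 4 became 21 with DESeq2, 29 with all 27 libraries, 7 with summed libraries, and 2 without Z917, Z918 or Z919. For SR against SE the 0 became 8 with DESeq2, 5 without the filter, 2 with all 27 libraries, 1 each for the other label and for summed libraries, and 1, 35 and 6 without Z908, Z909 or Z912.

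Between labels and facilities, 39 of 537 values over 42 results of members changed sign, none of them called. DESeq2, like edgeR without the block, called 0 members in each of these comparisons. In the libraries labelled TNF-treated, the GF difference was -0.0025 for Cdx2, -0.0339 for Gata6 and -0.0057 for Elf3, and the SR difference -0.04 for Cdx2, 0.0114 for Hnf4g and -0.0315 for Gata4. Summed libraries gave an SR difference of -0.0117 for Cdx2. The difference of Klf4 between the organoid and m-ICc12 labels was 0.0143 with DESeq2 and 0.0245 with the block. Leaving out each culture gave, between organoid labels, -0.0141 to 0.0814 for Cdx2, -0.11 to 0.0722 for Hnf4g and -0.0583 to 0.021 for Gata6, and between m-ICc12 labels -1.06 to 0.50 for Cdx1 and -0.45 to 0.0591 for Klf4. For the difference between these it gave -0.22 to 0.68 for Cdx1, -0.39 to 1.59 for Cdx2, -2.04 to 1.45 for Hnf4g, -0.66 to 1.16 for Gata4, -0.0049 to 0.11 for Elf3 and -0.21 to 0.31 for Klf4. GF against SPF ranged over -0.0686 to 0.24 for Cdx2, -0.24 to 0.29 for Hnf4g, -0.19 to 0.0659 for Klf5, -0.0495 to 0.061 for Elf3 and -0.0053 to 0.23 for Klf4. SR against SE ranged over -0.02 to 0.0508 for Hnf4a, -0.40 to 0.25 for Hnf4g, -0.05 to 0.26 for Gata4, -0.25 to 0.0548 for Gata6 and -0.0081 to 0.11 for Elf3.

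Among list genes between organoids and m-ICc12, the libraries labelled TNF-treated gave 0.38 for Myc (adjusted p = 0.0497), -1.19 for Col1a2 and -1.24 for Acta2, summed libraries gave 0.0391 for Myc, and Krt18 ranged from -0.0385 to 0.26 without each culture. Of 36 pairs of members, 1 passed in the libraries labelled untreated alone, Klf5 with Klf4 (exact permutation test, r = -0.91, adjusted p = 0.044), a pair with r = 0.0633 in those labelled TNF-treated. Of 18 relations of members with the means of target and stem cell genes, 1 passed over culture means, 0 in the libraries labelled untreated and 4 with facility means removed, those of Hnf4g and Elf3 with each mean. Permuting only within facilities, an alternative chosen after seeing the data, left 0 of the 18 (4 at an unadjusted exact permutation p under 0.05). The sets of cultures described for the targets were drawn after the values were seen.

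Levels of Cdx2, Hnf4g, Gata4 and Gata6 in m-ICc12 rested on 0 to 28 counts a library, which limits their differences from MEFs and between labels. The causes of these changes were not tested.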
